A study of Homo sapiens with 6 samples.

Results

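Transcripts of the nuclear pore and of the nuclear transport machinery were followed in ME180 cells, an epithelial line from a cervical cancer, 48 h after transfection with an siRNA against SGK1 (siSGK1, 3 libraries) or with a control siRNA (siControl, 3 libraries). Both groups were transfected, and the libraries came from polyA RNA of 3 biological repeats each, numbered 2, 3 and 4. The genes were taken by name from the protein-coding rows of the expression table. They comprise the numbered nucleoporins (NUP), importins alpha (KPNA), importin beta 1 (KPNB1), importins (IPO), the exportins (XPO) used here, transportins (TNPO), RAN, RANBP1, RANBP2, RANGAP1 and RCC1. This gave 49 of 58302 genes. Their levels are in FPKM, a read count divided by the size of the library and the length of the gene, which allows genes of different length to be set side by side. SGK1 encodes a protein kinase of the AGC family, and no other treatment is given for either group. ME180 is a single established line, and the labels name no siRNA sequence, so loss of SGK1 and other effects of the siRNA cannot be told apart.

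The nuclear pore is a ring-shaped channel of nucleoporins through the nuclear envelope. Proteins with import or export signals cross it bound to importins, transportins or exportins, which touch the phenylalanine-glycine (FG) repeats that fill the channel. The small GTPase RAN gives the direction: RCC1 on chromatin loads it with GTP in the nucleus, and RANGAP1 with RANBP1 and RANBP2 triggers hydrolysis on the cytoplasmic side. In mitosis, when the envelope of human cells breaks down, the same RAN and importin system governs spindle assembly.

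The knockdown was seen in every library. SGK1 had 1.58, 1.70 and 1.81 FPKM in siSGK1 replicates 2, 3 and 4, against 3.91, 4.27 and 4.17 FPKM in siControl. All siSGK1 values lay below all siControl values, at 41.2% of the control mean (log2 change −1.07, SE 0.07, limma adjusted p = 1.88e-05; exact two-sided permutation p = 0.1, the smallest that 3 against 3 libraries allow). Libraries held 28405647 to 35242643 reads in siSGK1 and 27262794 to 27874948 in siControl. Mitochondrial genes took 3.38 to 3.66% of reads in siSGK1 and 4.16 to 4.40% in siControl, without overlap. All 8 epithelial markers passed the level filter. Of these, 4 fell (KRT5, KRT14, KRT8 and SFN), or 50% beside 22.7% of all genes tested. The other 4 were not called: KRT18, EPCAM, CDH1 and TP63 had log2 changes of −0.105, −0.006, 0.01 and 0.002. The summed FPKM of the 8 was 4780 to 5568 in siSGK1 and 7619 to 7988 in siControl, mostly KRT5, SFN and KRT14. Of 5 fibroblast markers COL1A1 alone passed (5.37 ± 0.46 FPKM in siSGK1 and 4.93 ± 0.26 in siControl, SD, n = 3 each), and none of 4 leukocyte or 3 endothelial markers did. The leukocyte sum was 0.0286 to 0.0780 FPKM in siSGK1 and 0.0351 to 0.102 in siControl. PECAM1 was at 0 in every library, while the endothelial sum was 0.710 to 0.882 FPKM in siSGK1 and 1.38 to 1.66 in siControl, mostly VWF. The part of the mitochondrial share and of these marker differences in the results below was not tested. By read counts siSGK1 replicate 3 stood apart from replicates 2 and 4 (chi-square per degree of freedom 6.98 and 6.49, against 2.99 between those). The siControl pairs gave 2.99 (replicates 2 and 3), 4.87 (2 and 4) and 3.12 (3 and 4). Since siSGK1 replicate 3 gave the highest values, genes of the name rule whose call changed without it are named with their results. Counts without it are given for the other lists where they changed.

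Many transport genes rose by small steps after siSGK1, among them 4 importins alpha, KPNB1 and the transportins, the export receptors XPO1 and XPO6, and the RAN regulators RCC1 and RANBP1. Of the 49 genes 45 had a mean of at least 1 FPKM and were tested. At an adjusted p below 0.05 (limma on log2(FPKM + 0.5), Benjamini-Hochberg over all 11945 genes tested), 17 rose and 2 fell (15 and 1 without siSGK1 replicate 3). In the same fit 40.6% of all genes were called, 17.9% higher and 22.7% lower, so 37.8% of these genes rose against 17.9% of all genes, and 4.44% fell against 22.7%. The groups did not overlap, with siSGK1 higher, for 28 of the 45, beside 24.6% of all genes, and with siSGK1 lower for 2, beside 28.8% of all genes. The median log2 change was 0.15 here and −0.006 over all genes tested. The sizes were modest: log2 changes ran from −0.43 (NUP188) to 0.40 (KPNA2), and none reached 1.5-fold on the log2(FPKM + 0.5) scale. Changes of at least 1.5-fold were few over all genes too: 285 of the 11945 tested rose and 442 fell by that much.

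The direction is relative to the scaling of the deposited values, in which the median gene lies near 0. When libraries were scaled by total reads the median of all genes moved to 0.12, and 35 of the 45 were called higher and 1 lower; with TPM scaling it moved to 0.19, and 41 were called higher and 1 lower (NUP188 in each case). The share of calls over all genes that were higher was 44.2% as deposited, 73.6% with total-read scaling and 82.8% with TPM scaling. Against the median of all genes, the members' median stood 0.16 higher as deposited and 0.17 higher under each of those scalings. In bulk libraries, a change in the share of cells in a given state and a change of RNA per cell cannot be told apart.

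**Figure D1:**
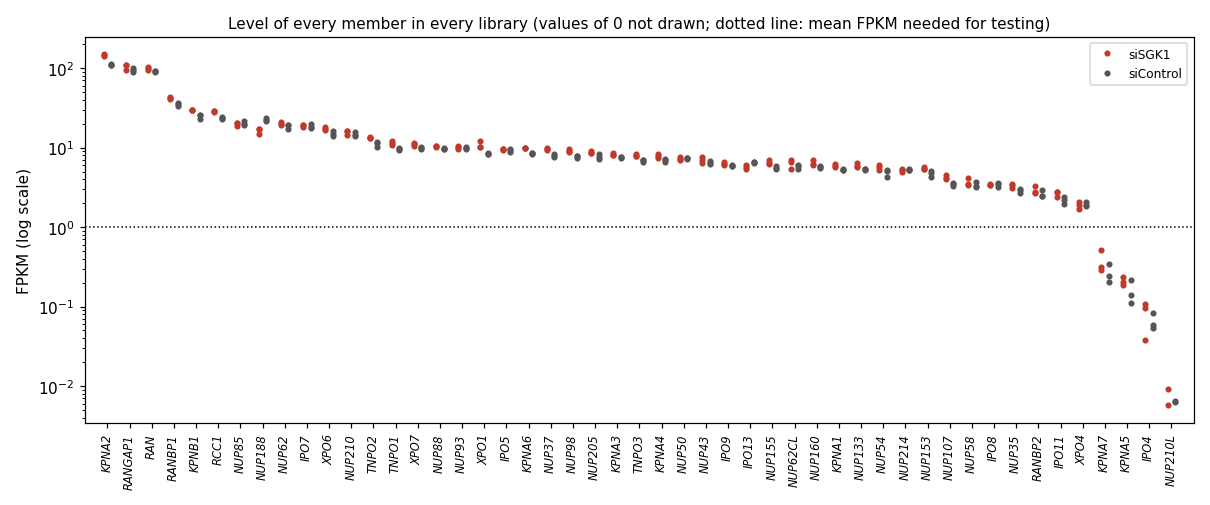
FPKM of each of the 49 genes on a log axis, ordered by mean level, with 1 point per library (siSGK1 left, siControl right of each gene). KPNA2, RANGAP1 and RAN stand at the top near 100 FPKM, and KPNA7, KPNA5, IPO4 and NUP210L lie below the dotted line at 1 FPKM that was needed for testing.

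Levels spanned a wide range. Importin alpha KPNA2 was highest, followed by RANGAP1 and RAN, which did not differ from each other beyond their spread (104.9 ± 7.8 and 100.2 ± 4.6 FPKM in siSGK1, 94.3 ± 5.5 and 91.4 ± 2.0 in siControl; SD, n = 3 each). RANBP1, KPNB1 and RCC1 came next, between 41.9 and 23.5 FPKM in either group. No nucleoporin exceeded 23.3 FPKM in any library, and most lay between 2 and 10 FPKM. The 4 genes below the filter were IPO4, an importin for histones and ribosomal proteins (0.0382 to 0.109 FPKM in siSGK1, 0.0539 to 0.0837 in siControl), KPNA5 (0.185 to 0.234 and 0.110 to 0.214), KPNA7 (0.285 to 0.508 and 0.201 to 0.344) and NUP210L (0 to 0.00927 and 0 to 0.00647). Their groups overlapped. IPO4 shares exons with AL136295.4 on the same strand and REC8 on the other, so its low value is uncertain.

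Promoters of KPNA2, XPO1 and NUP188 are shown because these carry the largest rises and the largest fall among the 45 genes. Each is a window of 300 bases, most of it before a start listed in RefSeq on GRCh38.p14, given 5′ to 3′ on the gene's strand. That start can differ from the gene's outer coordinate printed here. By those coordinates the XPO1 window and most of the KPNA2 window lie within the gene. Capitals mark the letters of any of 6 searched motifs, found on either strand. The E2F motif was searched as GGCGGGA and the CHR element of cell cycle genes as TTTGAA. The CCAAT box was searched by its name, the NRF1 motif as GCATGCG and the ETS motif as CCGGAA. The E-box was searched as CACGTG, which reads the same on both strands.
KPNA2, chr17:68035485-68035784, plus strand: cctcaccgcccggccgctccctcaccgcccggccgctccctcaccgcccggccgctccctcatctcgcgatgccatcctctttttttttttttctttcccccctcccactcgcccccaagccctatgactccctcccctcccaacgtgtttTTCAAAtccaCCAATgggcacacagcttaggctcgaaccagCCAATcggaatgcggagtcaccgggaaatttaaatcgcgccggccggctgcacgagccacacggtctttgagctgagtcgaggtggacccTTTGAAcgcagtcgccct
XPO1, first of its listed promoters, chr2:61538307-61538606, minus strand: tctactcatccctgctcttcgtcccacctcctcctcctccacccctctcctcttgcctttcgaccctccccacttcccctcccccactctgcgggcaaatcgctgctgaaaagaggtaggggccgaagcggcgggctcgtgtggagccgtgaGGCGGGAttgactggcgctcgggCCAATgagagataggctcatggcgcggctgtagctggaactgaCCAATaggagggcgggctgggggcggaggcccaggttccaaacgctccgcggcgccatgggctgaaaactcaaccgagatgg
NUP188, chr9:128947449-128947748, plus strand: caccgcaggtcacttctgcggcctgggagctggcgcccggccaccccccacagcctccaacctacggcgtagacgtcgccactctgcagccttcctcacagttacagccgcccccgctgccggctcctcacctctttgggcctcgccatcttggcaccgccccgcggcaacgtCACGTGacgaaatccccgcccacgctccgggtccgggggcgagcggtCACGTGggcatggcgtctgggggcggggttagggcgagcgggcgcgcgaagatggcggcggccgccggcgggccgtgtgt
The KPNA2 promoter holds a pair of CCAAT boxes and a pair of CHR letter runs, the XPO1 promoter a pair of CCAAT boxes and an E2F run, and the NUP188 promoter a pair of E-boxes and none of the other 5 motifs.

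Of the 49 genes 42 had a promoter in the table, 56 promoters in all, to be set beside 35116 promoters of all genes. The 35116 were not limited to the genes tested here, so genes with little or no expression are among them. A gene can have several promoters, and 13 of the 42 had 2 or more. The E2F letters stood in 33.9% of these promoters and in 15.4% of all, the ETS letters in 33.9% and 17.2%, and the NRF1 letters in 12.5% and 3.91%. CCAAT stood in 44.6% and 34.6%, CHR in 25% and 15.2%, and the E-box in 16.1% and 7.26%. These promoters also had a higher base content of G and C (median 62.8% against 58.7%) and more CpG pairs (median 26 against 14 per 300 bases), and the part of base content in the motif shares was not tested. Among matched genes, CCAAT was present for 9 of the 14 that rose and 10 of the 24 not called, and the E2F letters for 4 of 14 and 14 of 24. CHR was present for 4 of 14 and 8 of 24, the ETS letters for 5 of 14 and 11 of 24, the NRF1 letters for 3 of 14 and 3 of 24, and the E-box for 3 of 14 and 4 of 24. None of these differences was tested. A letter match describes the sequence and shows no binding.

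RCC1 and RANBP1 rose, while RAN and RANGAP1 were not called. RCC1, the nucleotide exchange factor (chromosome 1, 28505943 to 28539300, plus strand), had 29.1, 28.0 and 29.2 FPKM in siSGK1 and 24.1, 23.6 and 22.6 FPKM in siControl. The groups did not overlap (log2 change 0.29, SE 0.05, limma adjusted p = 0.00124). RCC1 overlaps exons of SNHG3, a snoRNA host gene on the same strand that also rose, to 7.74 ± 0.76 FPKM in siSGK1 against 5.25 ± 0.38 in siControl (SD, n = 3 each), so part of its reads cannot be placed with certainty. RANBP1, which assists GTP hydrolysis, had 40.4, 42.2 and 43.1 FPKM in siSGK1 and 36.0, 35.6 and 33.4 FPKM in siControl. Again all siSGK1 libraries were above all siControl libraries (log2 change 0.26, limma adjusted p = 0.00338). RANBP1 overlaps exons of TRMT2A on the other strand, which was not called (log2 change 0.03).

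RAN (chromosome 12, 130871879 to 130877678, plus strand) had 101.3, 95.2 and 104.2 FPKM in siSGK1 and 91.5, 93.2 and 89.3 FPKM in siControl. These groups did not overlap either, but siSGK1 replicate 3 lay close to siControl replicate 3 and the test was not passed (log2 change 0.13, 95% interval 0.03 to 0.24, limma adjusted p = 0.052). RANGAP1, the activating protein that is anchored at the pore, had 110.4, 96.0 and 108.3 FPKM in siSGK1 and 99.7, 94.3 and 88.8 FPKM in siControl. Its groups overlapped, since siSGK1 replicate 3 lay below siControl replicate 2 (log2 change 0.15, 95% interval 0.002 to 0.30, limma adjusted p = 0.097). Without siSGK1 replicate 3 both genes were called higher, RAN at a log2 change of 0.17 (adjusted p = 0.011) and RANGAP1 at 0.21 (adjusted p = 0.018) (limma, Benjamini-Hochberg). RAN has 9 annotated pseudogenes, and reads may be shared with them.

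**Figure D2:**
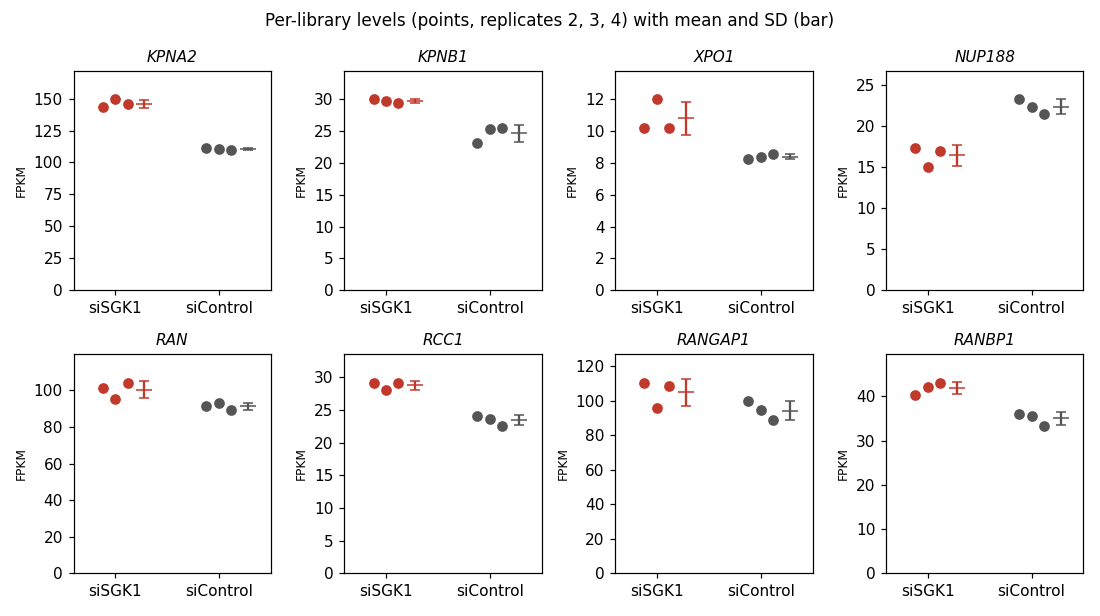
FPKM in each library for 8 genes, with siSGK1 (red) left of siControl (grey); points are replicates 2, 3 and 4, and the bar gives the mean and SD. KPNA2, KPNB1, XPO1, RAN, RCC1 and RANBP1 lie higher in every siSGK1 library, though RAN was not called. NUP188 lies lower in every siSGK1 library, and the RANGAP1 groups overlap.

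Importins alpha, the adaptors that read classical nuclear localization signals, rose in 4 of 5 tested genes, with a median log2 change of 0.19. That is 80% beside 17.9% of all genes. KPNA2 (chromosome 17, 68035519 to 68046842, plus strand), the form that is abundant in dividing cells, had 143.2, 149.4 and 145.6 FPKM in siSGK1 and 111.4, 110.6 and 109.6 FPKM in siControl. This was the largest rise among the 45 tested genes of the name rule, with little spread in either group (log2 change 0.40, SE 0.04, limma adjusted p = 0.000139). KPNA6 rose to 9.92 ± 0.11 FPKM in siSGK1 against 8.53 ± 0.16 in siControl, KPNA4 to 7.89 ± 0.47 against 6.84 ± 0.29, and KPNA1 to 5.98 ± 0.29 against 5.29 ± 0.06 (SD, n = 3 each). KPNA3 had a log2 change of 0.12 (95% interval 0.007 to 0.23) and was not called. KPNA2 made up 81.6 to 82.1% of the summed importin alpha FPKM in siSGK1 and 79.1 to 80.0% in siControl. The calls of KPNA4 and KPNA1 were narrow: KPNA1 was lost on leaving out any of the 6 libraries (adjusted p 0.0502 to 0.103), and KPNA4 on leaving out siSGK1 replicate 2 or 3 or siControl replicate 2 or 4 (up to 0.0945). KPNA2 has 3 annotated pseudogenes.

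Among the import receptors of the beta family, KPNB1 and the transportins rose while none of the numbered importins IPO5 to IPO13 was called higher. KPNB1, the partner of importin alpha (chromosome 17, 47649476 to 47685505, plus strand), had 30.0, 29.7 and 29.4 FPKM in siSGK1 and 23.1, 25.4 and 25.5 FPKM in siControl. The siSGK1 libraries agreed closely and all stood above siControl (log2 change 0.27, SE 0.05, limma adjusted p = 0.00358). TNPO1 and TNPO2, which import hnRNP proteins, rose by log2 changes of 0.24 each, and TNPO3, the import receptor of SR splicing factors, by 0.22 (limma adjusted p = 0.00809, 0.0149 and 0.00956). IPO5, IPO7, IPO8 and IPO9 had log2 changes of 0.04, 0.04, −0.006 and 0.07 and were not called; the sign of IPO8 turned with quantile, total-read and TPM scaling. Their 95% intervals ran from −0.14 at the lowest to 0.19 at the highest, so a rise as large as that of KPNA2 lay outside all of these. IPO11 was not called (log2 change 0.22, limma adjusted p = 0.064). IPO13, a receptor that carries cargo both ways, had 5.66, 5.40 and 6.09 FPKM in siSGK1 and 6.50, 6.54 and 6.39 FPKM in siControl. It fell (log2 change −0.17, limma adjusted p = 0.041), a call that held only without siSGK1 replicate 4 among the 6 fits with a library left out (adjusted p 0.0303 to 0.118) and that was lost with total-read scaling (log2 change −0.04) and changed sign with TPM scaling (0.02).

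The exportins were led by XPO1, the general receptor for leucine-rich export signals (chromosome 2, 61477849 to 61538626, minus strand). It had 10.2, 12.0 and 10.2 FPKM in siSGK1 and 8.23, 8.40 and 8.58 FPKM in siControl. siSGK1 replicate 3 was the highest, and all siSGK1 libraries were above all siControl libraries (log2 change 0.34, SE 0.07, limma adjusted p = 0.00437; 0.27 without siSGK1 replicate 3). XPO6, the exportin of actin, rose to 17.4 ± 0.8 FPKM in siSGK1 against 15.1 ± 1.2 in siControl (SD, n = 3 each; limma adjusted p = 0.033). That call was lost without siSGK1 replicate 2 or 4 or siControl replicate 3 or 4 (adjusted p up to 0.10). XPO7 had a log2 change of 0.14 (limma adjusted p = 0.051) and XPO4 of −0.03 (adjusted p = 0.80), which was positive with total-read and TPM scaling. Of 19 tested transport receptors in all, 10 rose and 1 fell, with a median log2 change of 0.19. These are 52.6% and 5.26%, beside 17.9% and 22.7% of all genes. Their summed FPKM was 325.6 to 335.7 in siSGK1 and 270.6 to 274.2 in siControl.

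Of 22 tested nucleoporins, 5 rose and 1 fell, which is 22.7% and 4.55% beside 17.9% and 22.7% of all genes, with a median log2 change of 0.12. Their summed FPKM was 188.5 to 191.2 in siSGK1 and 180.5 to 184.0 in siControl. The rises were spread over the outer ring, the inner ring, the channel and the basket, and the share that rose was close to that of all genes. The difference between nucleoporins and transport receptors was not tested.

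In the outer ring, the Y-shaped scaffold complex, 2 of 6 tested genes rose, or 33.3% beside 17.9% of all genes. NUP37, a propeller subunit of that complex, had 9.65, 9.94 and 9.32 FPKM in siSGK1 and 7.92, 8.35 and 7.56 FPKM in siControl. The lowest siSGK1 library was well above the highest siControl library (log2 change 0.26, SE 0.05, limma adjusted p = 0.00494). NUP107 rose to 4.23 ± 0.27 FPKM in siSGK1 against 3.47 ± 0.16 in siControl (limma adjusted p = 0.0144). NUP133, NUP160 and NUP43 had log2 changes of 0.16, 0.14 and 0.09 and were not called, and NUP85 had −0.04, which turned positive with quantile, total-read and TPM scaling. NUP37, NUP133, NUP160 and NUP107 each showed no overlap between groups, with siSGK1 higher, as did 24.6% of all genes.

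The inner ring held the largest fall. NUP188 (chromosome 9, 128947699 to 129007096, plus strand), a large scaffold protein, had 17.4, 15.0 and 17.0 FPKM in siSGK1 and 23.3, 22.4 and 21.5 FPKM in siControl. All siSGK1 libraries were below all siControl libraries (log2 change −0.43, SE 0.06, limma adjusted p = 0.001). NUP205, a scaffold protein of the same family in this ring, had 8.48, 9.09 and 8.51 FPKM in siSGK1 and 7.15, 7.67 and 8.33 FPKM in siControl. Its groups did not overlap, with siSGK1 higher, but it was not called (log2 change 0.16, limma adjusted p = 0.071). NUP188 thereby made up 62.2 to 67.2% of the sum of the pair in siSGK1 and 72.1 to 76.5% in siControl. NUP188 overlaps exons of SH3GLB2 on the other strand, which also fell, to 25.6 ± 1.5 FPKM in siSGK1 against 30.0 ± 0.7 in siControl (SD, n = 3 each). The genes share only their ends, from position 129007036, where SH3GLB2 begins, to 129007096, where NUP188 ends. Without a stated strand setting, reads in that stretch cannot be told apart. NUP155 rose (log2 change 0.20, limma adjusted p = 0.035), and lost the call without siSGK1 replicate 3 or 4 or siControl replicate 2 or 3 (adjusted p up to 0.127). NUP35 and NUP93 had log2 changes of 0.18 and 0.02 and were not called.

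Of the FG nucleoporins of the channel, NUP98, which also takes part in mRNA export, rose to 9.16 ± 0.34 FPKM in siSGK1 against 7.71 ± 0.28 in siControl (SD, n = 3 each; limma adjusted p = 0.00718). It overlaps PGAP2, which was not called (log2 change −0.07). NUP54, NUP58, NUP62 and the related NUP62CL had log2 changes of 0.21, 0.09, 0.11 and 0.11 and were not called. On the cytoplasmic face NUP214, NUP88 and RANBP2, the large SUMO ligase of the pore filaments, were not called (log2 changes −0.03, 0.08 and 0.13; that of NUP214 was positive with total-read and TPM scaling), and RANBP2 reads may be shared with its 7 RGPD copies. In the nuclear basket NUP153 rose (log2 change 0.20, limma adjusted p = 0.04), a call kept in 1 of the 6 fits with a library left out (adjusted p 0.024 to 0.117; lost without siSGK1 replicate 2, 3 or 4 or siControl replicate 2 or 3). NUP50, its partner there, had a log2 change of 0.006 with a 95% interval from −0.11 to 0.12. The membrane nucleoporin NUP210 was not called (log2 change 0.08).

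**Figure D3:**
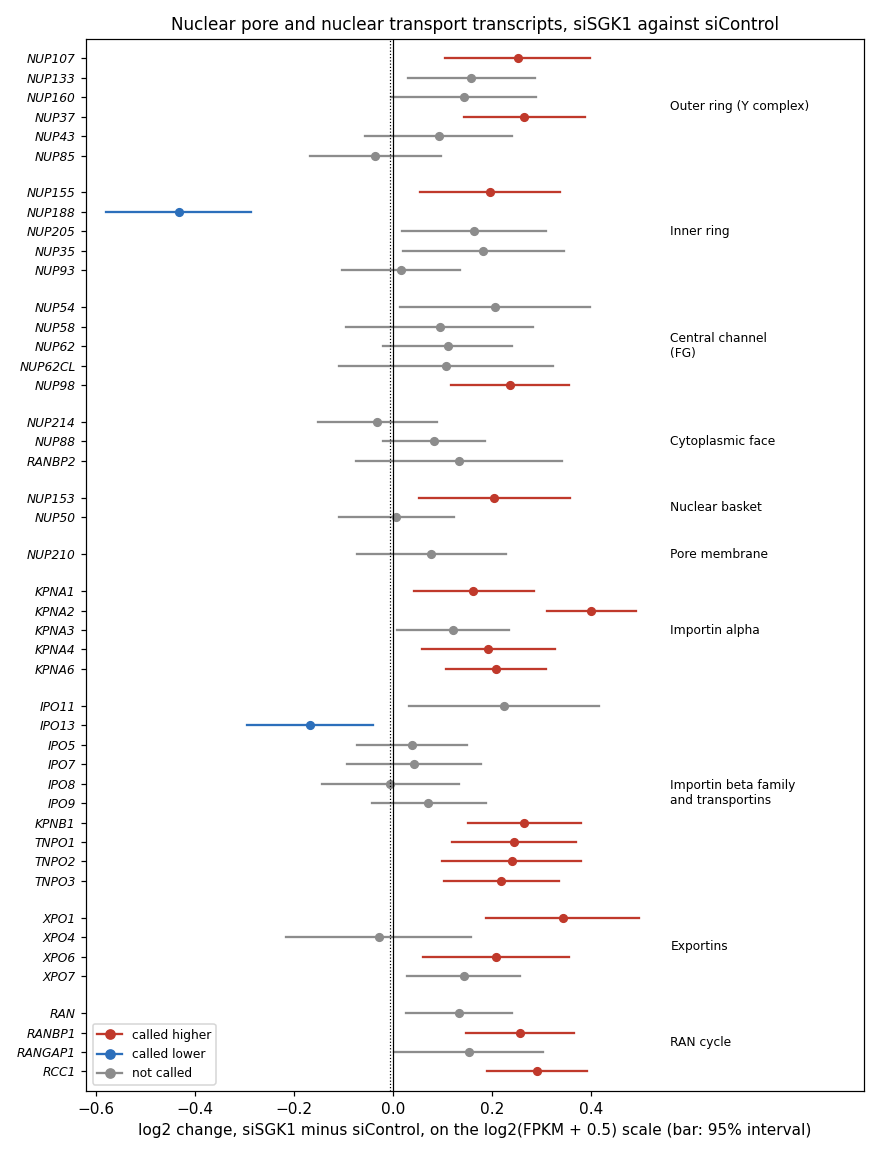
Log2 change (siSGK1 minus siControl) of the 45 tested genes with 95% intervals, grouped by place in the pore or role in transport; red was called higher, blue lower, grey not called, and the dotted line is the median of all genes tested. Most points lie to the right of 0, KPNA2 farthest at 0.40, while NUP188 lies alone at −0.43 in the inner ring.

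Sites in 3′ UTRs were counted because an earlier search of these same libraries had linked the heptamers CTATGCA and TATGCAA to lower transcripts and CGGAGAA and TCGGAGA to higher ones. The heptamers were thus chosen on these data, and the counts are a description. In the longest annotated 3′ UTR (GENCODE 29), 10 of the 45 tested genes held CTATGCA or TATGCAA, or 22.2% beside 16.2% of 10273 genes, and 0 held CGGAGAA or TCGGAGA (3.98% of all). Those 10 were IPO5, IPO7, IPO8, IPO9, KPNA4, NUP107, NUP188, RANBP2, TNPO1 and XPO4. Their median log2 change was 0.06, with 3 called higher and 1 lower, and that of the 35 others was 0.16, with 14 called higher and 1 lower. Over all 10273 genes the medians were close, −0.036 with such a site and −0.003 without. For CGGAGAA or TCGGAGA the medians over all these genes were 0.067 with a site and −0.011 without. The 3′ UTRs of the 10 ran from 418 bases (NUP188) to 8240 (IPO9), and the part of 3′ UTR length was not tested. The uncalled importins IPO5, IPO7, IPO8 and IPO9 were in the first set, but IPO11, also not called, and IPO13, which fell, held no site. KPNA4, NUP107 and TNPO1 rose with a site. Sites of the gene with the largest fall, of an uncalled importin and of a gene that rose are shown with the heptamer in capitals, 5′ to 3′ on the transcript.
NUP188, 3′ UTR positions 320 to 326: agcagagggctCTATGCAcgggtttcaaa
IPO5, positions 2121 to 2127: cctcattctgtCTATGCAagatgaaaatc
TNPO1, positions 3513 to 3519: cttgattttgtTATGCAAgttagatttca
The IPO5 site continues into TATGCAA, whereas in NUP188 the base after CTATGCA differs. Whether a site took part in any of these values was not tested.

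Other pore and transport genes, chosen by function from outside the name rule, moved both ways. Of 25 tested, 10 rose and 3 fell (9 and 2 without siSGK1 replicate 3), with a median log2 change of 0.08. With all libraries these are 40% and 12%, beside 17.9% and 22.7% of all genes. GLE1, an mRNA export factor of the cytoplasmic face, rose to 31.7 ± 0.6 FPKM in siSGK1 against 21.6 ± 1.1 in siControl, and CSE1L, the exportin that returns importin alpha to the cytoplasm, to 35.8 ± 0.4 against 27.9 ± 2.3 (SD, n = 3 each; limma adjusted p = 8.17e-05 and 0.00199). SNUPN, the adaptor for spliceosomal snRNPs, and NCBP1, a cap-binding protein, rose by log2 changes of 0.40 and 0.32. The 3 falls, named after their values were seen, were AAAS, XPOT and RANGRF (log2 changes −0.19, −0.18 and −0.36).

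Of 16 tested genes of mRNA export 3 rose and 0 fell by limma (0 also at an unadjusted p below 0.05 and with voom, and 1 without siSGK1 replicate 2), with a median log2 change of 0.09. The share that rose, 18.8%, was near the 17.9% of all genes, and without siSGK1 replicate 3 the rises numbered 2. These were THOC7, DDX39A and SEM1 (log2 changes 0.44, 0.24 and 0.19), and PCID2 was not called (0.18). In the SUMO pathway, which modifies RANGAP1, 2 of 12 rose and 0 fell by limma (1 at an unadjusted p below 0.05, 0 with voom): SAE1 and SUMO2 (log2 changes 0.22 and 0.15), while UBA2 was not called (0.09). Here too the share that rose, 16.7%, was near that of all genes. Of 15 tested genes of the lamina and nuclear envelope 4 rose and 3 fell (3 and 2 without siSGK1 replicate 3), or 26.7% and 20.0% beside 17.9% and 22.7% of all genes. LMNB1, a B-type lamin, rose to 47.6 ± 1.7 FPKM in siSGK1 against 29.4 ± 0.6 in siControl (SD, n = 3 each; limma adjusted p = 2.03e-05), and LMNB2 rose by a log2 change of 0.35. SUN1, which links the lamina to the cytoskeleton, and TOR1AIP1 fell (log2 changes −0.43 and −0.45).

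Genes of mitosis stood higher in the same libraries and by larger steps. Of 7 tested spindle factors under RAN control, 5 rose and 0 fell by limma (0 also at an unadjusted p below 0.05 and with voom), with a median log2 change of 0.54, among them TPX2, KIFC1, NUSAP1 and HMMR (0.59, 0.53, 0.65 and 0.74). Of 19 tested genes of G2 and mitosis, 17 rose and 0 fell by limma (0 also at an unadjusted p below 0.05 and with voom), with a median log2 change of 0.58, those with the smallest p being AURKB, BIRC5, UBE2C and CCNA2 (0.98, 0.98, 0.76 and 0.73). The shares that rose were 71.4% of the spindle list and 89.5% of the mitosis list, beside 17.9% of all genes, while 22.7% of all genes fell. These lists, like the others, were chosen with earlier results of these data known, so the shares are a description. The summed FPKM of the G2 and mitosis list was 903.2 to 920.2 in siSGK1 and 591.6 to 613.2 in siControl. KPNA2 transcripts are known to vary over the cell cycle, and the part of cell cycle phase in the rises of the transport genes was not tested.

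**Figure D4:**
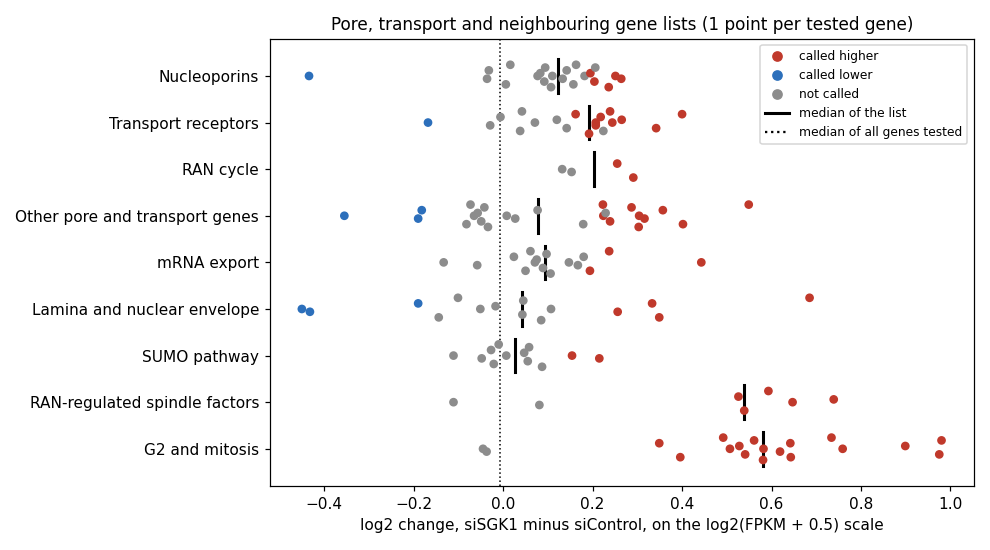
Log2 change (siSGK1 minus siControl) of each tested gene, 1 point per gene, for nucleoporins, transport receptors, the RAN cycle and 6 neighbouring lists; thick bars are list medians and the dotted line the median of all genes tested. Medians are 0.12, 0.19 and 0.20 for the pore, receptor and RAN sets, 0.03 to 0.09 for the next 4 lists, and 0.54 and 0.58 for the spindle and mitosis lists.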

How the data were processed

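Expression was measured by sequencing of polyA RNA from 6 libraries of ME180 cells. Per the submitters' processing notes, bcl2fastq 2.19, HISAT2 2.0.5 and featureCounts 1.5.0-p3 were used with hg19; the coordinates in the deposited table, however, match GENCODE 29 on GRCh38 for all 49 genes, and these are printed. No source used here states the strand setting or how reads with several matches were counted. The authors deposited FPKM values, and every value came out as a whole number of reads within 0.001 when scaled back. The implied library sizes equal size factors times a common constant, so FPKM here is relative to the bulk of genes.

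Genes averaging 1 FPKM or more over the 6 libraries were tested with limma 3.58.1 in R 4.3.3 on log2(FPKM + 0.5), which understates changes of low genes, with Benjamini-Hochberg adjustment over all 11945 genes. All adjusted p-values come from limma. Single shares and SGK1 were compared by exact permutation. The p-values measure the spread between these 3 repeats per group.

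Values in every library are given for SGK1, the 6 largest rises and up to 6 largest falls among called members, and the RAN cycle, KPNA2, KPNB1 and XPO1; of other lists up to 4 genes with the smallest p are named, apart from 1 that is not reported here. NUP205 was added after its values were seen. Members, lists, motifs and heptamers were chosen with earlier results of these data known. Alternatives were the pseudocount, the level filter, quantile, total-read and TPM scaling, voom on recovered reads, a replicate block and leaving out each library. Python 3.11.15, numpy 2.4.6, pandas 2.3.3, scipy 1.17.1 and matplotlib 3.10.9 were used.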

Additional observations from a re-analysis of the deposited data

How the results depend on the processing

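SGK1 kept its fall under every alternative that tested it; at a mean of at least 5 FPKM it was not tested. The counts of transport genes called higher and lower were 17 and 2; they became 11 and 1 with no level filter, 35 and 1 with total-read scaling, 41 and 1 with TPM scaling, and 11 and 1 when the 18 genes with an expressed exon overlap, a pseudogene or a near copy were left out (27 left). Without the genes that hold a 3′ UTR heptamer they were 14 and 1; both omissions were added after seeing the data. Leaving out each library gave 13 to 16 higher and 1 to 2 lower. Of the 19 called genes 13 kept the call in all of these and 12 in every alternative that tested them. With total-read and TPM scaling the sign turned for NUP85 (0.101 and 0.166), NUP214 (0.096 and 0.164), IPO8 (0.117 and 0.188) and XPO4 (0.082 and 0.153), and with TPM scaling for IPO13 (0.021); these scalings move the median of all genes by construction. With quantile scaling it turned for NUP85 (0.013) and IPO8 (0.002). Leaving out a library turned NUP85 (range −0.07 to 0.008, 0.004 in another case), NUP93 (−0.01 to 0.054, also −0.001), NUP50 (−0.029 to 0.03, also −0.001), IPO8 (−0.045 to 0.022, also 0.001, 0.005 and 0.007) and XPO4 (−0.085 to 0.027, also 0.009); none of these was called.

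No pairing by replicate number was seen: same-numbered libraries correlated at 0.116, 0.0135 and −0.103 in their deviations from the group means. Differently numbered libraries gave −0.159 to 0.149. With 3 libraries per group this check cannot exclude a pairing. With the replicate number as a block, 15 genes were called higher and 1 lower. Below about 1 FPKM the depth limits what can be seen.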
